A study of Drosophila melanogaster with 8 samples.

Results

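The subunits of the proteasome were followed along the larval midgut of *Drosophila melanogaster*. All rows of the gene table whose symbol starts with Pros, Rpn or Rpt were taken, which gave 48 of the 14207 rows with an identifier. The rule used names and no expression values, although it was chosen with earlier results of these data known. RNA was sequenced from 8 subsections cut from the midguts of larvae feeding in the third instar, with 1 library from pooled tissue for each subsection and no replicates. The anterior midgut was divided into M1, M2 and M3–5, the middle midgut into M6 and M7–8, and the posterior midgut into M9, M10–11 and M12–13. The labels give the strain as w1118 for every library. The dissected larvae were the progeny of a line carrying *GAL4* under the *Cyp4d2* promoter, crossed to w1118 flies with P{UAS-GFP.nls}14, and the fluorescence marked where to cut. The driver is active in M2, part of M3–5, M6, M9 and M12–13. The labels give no treatment and neither sex nor an exact age.

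The proteasome is the large protease of the cytoplasm and nucleus that degrades proteins tagged with ubiquitin. Its core particle is a barrel of stacked rings, with alpha subunits in the outer rings that gate the entrance and beta subunits in the inner rings, of which beta1, beta2 and beta5 carry the protease sites. A regulatory particle caps the barrel. The Rpt ATPases of its base unfold the substrate and thread it into the core, Rpn10 and Rpn13 bind ubiquitin chains, and Rpn11 of its lid cuts them off. The *Drosophila* genome also holds paralogs of several subunits, a number of which are known from the testis.

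The values are FPKM, the fragments assigned to a gene divided by its exon length and by a factor for the library. The authors used upper-quartile normalization for that factor, which does not set the summed FPKM of the libraries equal. The division by length is meant to let levels of long and short genes be set side by side. Differences between anterior and posterior libraries still moved with transcript length (Spearman's rho −0.70 over 5877 genes), which limits such comparisons across libraries. No counts were used here, so the number of reads behind a value is unknown, and no test between subsections was possible. The table gives a 95% interval for each value from a model without replicates. Its lower bound was 0 for all 256 values of the broadly expressed subunits and its upper bound was between 2.21 and 10.4 times the value (median 2.39), so the intervals of all subsections overlapped for every subunit. All differences below are therefore descriptions of single libraries. Summed FPKM was highest in M2 (1806163) and lowest in M12–13 (542365), and the median ratio of a library to the geometric mean was 0.720 in M6 against 0.987 to 1.17 in the others. RNA from M6 was more prone to degradation and that library had fewer reads, and the part of either in the M6 values was not tested. Of 8 midgut genes listed to check the tissue (digestive enzymes and others), 7 were found and all 7 reached 1 FPKM in at least 1 subsection. Summed FPKM of 4 muscle genes ran from 376 in M6 to 1233 in M12–13, 5 fat body genes from 0.124 in M10–11 to 26.3 in M1, 3 salivary gland genes from 0 to 0.381, 3 hemocyte genes from 0.454 to 1.83 and 2 Malpighian tubule genes from 0 to 0.645, and their part in the values below was not tested. The fat body sum was 13.8 FPKM in M2, 14.6 in M3–5 and at most 2.86 behind M3–5, so it was higher in every anterior library than in any other, the side on which the core subunits had their higher mean as deposited (3 of 14 at the same summed FPKM).

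The rows fell into groups that lay far apart. At least 1 FPKM in all 8 subsections was measured for 32 of the 48 rows (42.3% of all rows), while 12 rows had a summed FPKM below 1 over the 8 subsections (35.6% of all rows) and 4 lay between. The 32 broadly expressed genes were those with a plain subunit number and no paralog suffix: 7 alpha, 7 beta, 6 Rpt and 12 Rpn subunits, that is 14 genes of the core particle and 18 of the regulatory particle. The 15 paralogs and the row *Prosap* made up the rest. *Prosap* encodes a scaffold protein of the Shank family and not a proteasome subunit, so the label does not hold for that row. The lowest value of any broad subunit was 20.4 FPKM (*Rpn2* in M1), and the nearest row outside the limit was *Prosap* with a lowest value of 0.654 FPKM. Among the broad subunits the mean over subsections ran from 39.9 FPKM (*Rpn2*) to 165 FPKM (*Prosbeta4*), above 87.1% to 95.2% of all rows. In whole-tissue RNA, fewer cells of a type and less RNA per cell cannot be told apart, which applies to every level given here.

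**Figure D1:**
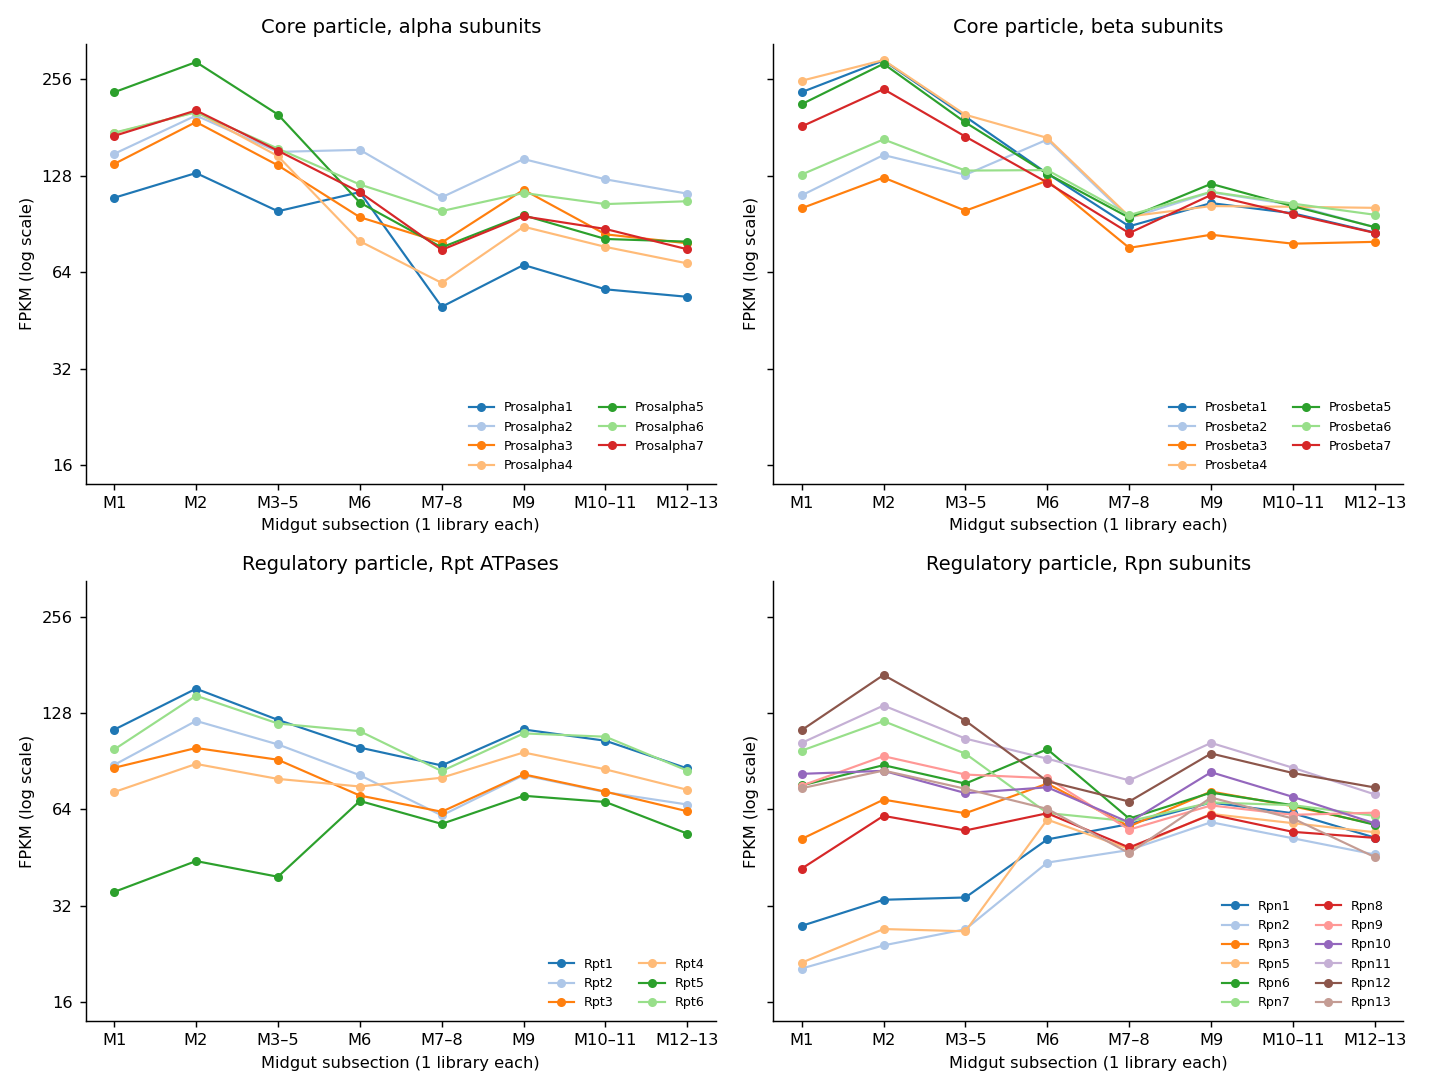
FPKM (log scale) of the 32 broadly expressed proteasome subunits in the 8 midgut subsections, 1 library each, with a line for each gene and a panel for each class. As deposited, 23 of the 32 genes are highest in M2 (1 of 32 at the same summed FPKM), while *Rpn1*, *Rpn2*, *Rpn5*, *Rpt4* and *Rpt5* are lowest in M1 and highest in M9.

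The alpha subunits form the outer rings of the core. As deposited, *Prosalpha5* (arm 2R, 13300272 to 13301274, on release 5 of the genome as are all positions here) had the highest mean of the class and the widest range of all 32 genes. It measured 233, 289.8 and 199 FPKM in M1, M2 and M3–5, 106 and 76.5 FPKM in M6 and M7–8, and 96.3, 81.2 and 79.7 FPKM in M9, M10–11 and M12–13. The anterior libraries were all above the others as deposited, and M2 was 3.79 times M7–8. Its anterior minus posterior difference, a log2 measure defined below, was 1.47 as deposited. It was 0.27 when every library was set to the same summed FPKM. *Prosalpha1* (arm 2R, 3712794 to 3716183, in a bundle with a neighboring gene) had the lowest mean of the class, with 109, 131 and 99.1 FPKM in M1, M2 and M3–5, 114 and 49.9 FPKM in M6 and M7–8, and 67.4, 56.6 and 53.6 FPKM in M9, M10–11 and M12–13. Here M6 stood with the anterior libraries, and the 4 libraries behind it were lower. Reads that fit both *Prosalpha1* and its near-identical copy *CG30382* (mean 87.3 FPKM) are divided between them. The rank of *Prosalpha1* within the class is therefore uncertain. *Prosalpha4* (X, 16170305 to 16171620) measured 174, 202 and 147 FPKM in M1, M2 and M3–5, 80.0 and 59.2 FPKM in M6 and M7–8, and 88.7, 76.7 and 68.2 FPKM in M9, M10–11 and M12–13. Its M6 value was 0.54 times that in M3–5, whereas that of *Prosalpha1* was 1.15 times. The other alpha subunits were *Prosalpha2* with 109.6 to 197 FPKM, *Prosalpha3* with 78.8 to 188, *Prosalpha6* with 99.3 to 202 and *Prosalpha7* with 75.1 to 205, and each was highest in M2.

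The beta subunits form the inner rings. The chymotrypsin-like site is on *Prosbeta5* (2R, 6707483 to 6709145, with a neighboring gene in the bundle), which measured 214, 286 and 188 FPKM in M1, M2 and M3–5, 129.8 and 94.7 FPKM in M6 and M7–8, and 121, 103 and 88.4 FPKM in M9, M10–11 and M12–13. The caspase-like site is on *Prosbeta1* (2R, 11895844 to 11902292, a bundle of 3 genes), with 233, 293 and 196 FPKM in M1, M2 and M3–5, 130.1 and 89.0 FPKM in M6 and M7–8, and 105, 97.7 and 85.1 FPKM in M9, M10–11 and M12–13. Both were highest in M2 and lowest in M12–13. The trypsin-like site is on *Prosbeta2* (3L, 14993051 to 15007162, with a neighboring gene in the bundle), which had another order: 111, 149 and 129 FPKM in M1, M2 and M3–5, 166 and 94.3 FPKM in M6 and M7–8, and 114, 104 and 88.3 FPKM in M9, M10–11 and M12–13. As deposited, it was the only core subunit with its highest value in M6 rather than M2. In M2 the FPKM of *Prosbeta1* and *Prosbeta5* was above that of *Prosbeta2*, and in M6 it was below it.

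The remaining beta subunits carry no protease site. *Prosbeta4* (2L, 16729777 to 16732133, a bundle of 3 genes) had the highest mean of all 32 genes, with 253, 294 and 198 FPKM in M1, M2 and M3–5, 168 and 95.5 FPKM in M6 and M7–8, and 103, 102 and 102 FPKM in M9, M10–11 and M12–13. Its last 4 libraries were nearly level. *Prosbeta3* (3R, 4829739 to 4831948, with a neighboring gene in the bundle) had the lowest mean of the class and measured 101, 126 and 99.5 FPKM in M1, M2 and M3–5, 124 and 76.2 FPKM in M6 and M7–8, and 83.7, 78.5 and 79.6 FPKM in M9, M10–11 and M12–13. In M6 it was within a few FPKM of its highest library, M2. *Prosbeta6* ran from 96.5 to 166 FPKM and *Prosbeta7* from 84.7 to 239.

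The Rpt ATPases, which form a ring on the core, were the most even class as deposited. *Rpt1* (2R, 3510747 to 3544275, a bundle of 5 genes) had the highest mean of the class, with 114, 152 and 122 FPKM in M1, M2 and M3–5, 99.8 and 87.8 FPKM in M6 and M7–8, and 114, 105 and 85.9 FPKM in M9, M10–11 and M12–13. *Rpt4* (X, 6182133 to 6185278, with a neighboring gene in the bundle) varied least of all 32 genes as deposited and measured 72.5, 88.7 and 79.7 FPKM in M1, M2 and M3–5, 75.4 and 80.4 FPKM in M6 and M7–8, and 96.4, 85.3 and 73.7 FPKM in M9, M10–11 and M12–13. Its highest value was 1.33 times its lowest. This evenness depended on the scaling. The anterior minus posterior difference of *Rpt4* was −0.08 as deposited and −1.27 at the same summed FPKM. *Rpt5* (3R, 19578598 to 19586322, a bundle of 4 genes) had the lowest mean of the class and the reverse order, with 35.4, 44.1 and 39.4 FPKM in M1, M2 and M3–5, 68.0 and 57.7 FPKM in M6 and M7–8, and 70.6, 67.5 and 53.7 FPKM in M9, M10–11 and M12–13. No anterior value of *Rpt5* reached its lowest middle or posterior value. *Rpt2* ran from 61.3 to 121 FPKM, *Rpt3* from 62.9 to 99.5 and *Rpt6* from 84.3 to 145, each highest in M2 and lowest in M7–8.

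Rpn1 and Rpn2 are the large scaffold proteins of the base, and in yeast Rpn1 also receives shuttle proteins that carry ubiquitinated substrates. *Rpn2* (3R, 24979246 to 24982977) had the lowest mean of all 32 genes, with 20.4, 24.1 and 27.0 FPKM in M1, M2 and M3–5, 43.7 and 47.8 FPKM in M6 and M7–8, and 58.3, 52.0 and 46.3 FPKM in M9, M10–11 and M12–13. *Rpn1* ran from 27.7 FPKM in M1 to 67.2 in M9. All middle and posterior values of both genes lay above all their anterior values. The ubiquitin receptors were flatter, with *Rpn10* between 57.9 FPKM in M12–13 and 84.4 in M2, and *Rpn13* between 45.4 in M12–13 and 84.6 in M2.

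Among the lid subunits, *Rpn12* (3L, 16576128 to 16577122) had the highest mean of the Rpn class, with 113, 168 and 121 FPKM in M1, M2 and M3–5, 78.3 and 67.7 FPKM in M6 and M7–8, and 95.6, 83.1 and 74.9 FPKM in M9, M10–11 and M12–13. *Rpn5* (3R, 1615215 to 1617291) ran the other way and measured 21.3, 27.1 and 26.6 FPKM in M1, M2 and M3–5, 59.5 and 48.1 FPKM in M6 and M7–8, and 61.9, 58.0 and 54.3 FPKM in M9, M10–11 and M12–13. M6 was 2.23 times M3–5, the largest step between these libraries among the 32 genes, and the anterior libraries did not overlap with the rest. *Rpn11*, the deubiquitinase of the lid, ran from 71.3 FPKM in M12–13 to 135 in M2, and its partner *Rpn8*, which has lost the enzyme site, from 41.8 in M1 to 62.2 in M6. The upper bound of the interval of *Rpn8* in M7–8 was 506 FPKM for a value of 48.7, the widest relative to its value of any broad subunit. The other lid subunits build the horseshoe-shaped frame of the lid, and of them *Rpn3* ran from 51.7 to 77.0 FPKM, *Rpn6* from 57.3 to 98.6, *Rpn7* from 58.7 to 121 and *Rpn9* from 55.3 to 93.8. *Rpn3* and *Rpn6* were highest in M6.

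Taken as a whole, the FPKM of the 32 subunits summed to 3655, 4607 and 3543 FPKM in M1, M2 and M3–5, 3108 and 2298 FPKM in M6 and M7–8, and 2907, 2597 and 2319 FPKM in M9, M10–11 and M12–13. The order was different as a share of all FPKM in a library, since anterior libraries held more FPKM in all. This share was 0.225%, 0.255% and 0.261% in M1, M2 and M3–5, 0.433% and 0.323% in M6 and M7–8, and 0.329%, 0.384% and 0.428% in M9, M10–11 and M12–13. When the 50 genes with the highest values in each library were left out of its total, the share was lowest in M1 (0.513%) and highest in M6 (0.959%), with 0.594% to 0.779% in the other libraries.

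The core and regulatory particles did not keep a fixed ratio. The median FPKM of the 14 core subunits was 2.27, 2.29 and 1.95 times that of the 18 regulatory subunits in the anterior libraries from front to back. It was 1.63 and 1.48 times in the middle ones and 1.49, 1.46 and 1.43 times in the posterior ones. As deposited, the core median was 202 FPKM in M2 and 85.0 in M12–13, and the regulatory median 88.3 and 59.5. In M3–5, 12 of the 14 core subunits were above the highest regulatory subunit, in M10–11 1 of 14. A ratio within a library is not changed by its scaling. Among transcripts of at most 1500 nt, which left 14 core and 10 regulatory subunits, the ratio was 2.04 in M1 and 1.35 in M12–13. With a length trend taken off in each library, the change along the midgut was smaller. The core median minus the regulatory median, with the log2(FPKM + 1) of each gene centered on its own mean over the libraries, went from 0.42 to 0.23 in M1, from 0.50 to 0.06 in M2 and from 0.25 to −0.0022 in M3–5. In the posterior libraries it went from −0.32, −0.34 and −0.26 to −0.13, −0.14 and −0.10.

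**Figure D2:**
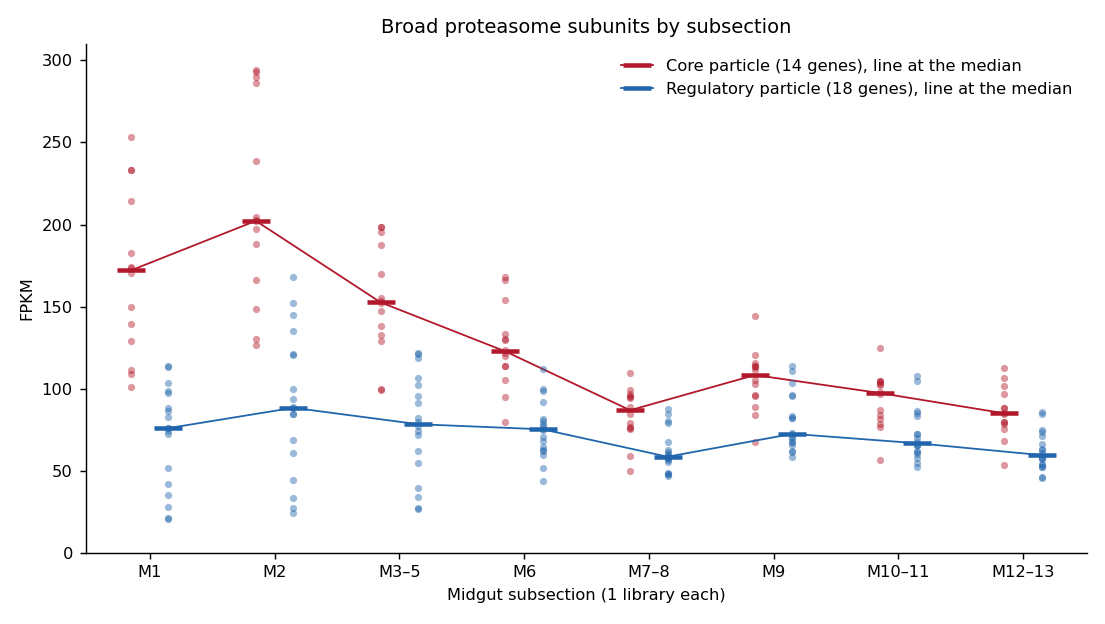
FPKM of the 14 core and the 18 regulatory subunits in each subsection (points, 1 library each), with a bar at the median of each group and a line joining the medians. The medians are 172 and 76.0 FPKM in M1 and 85.0 and 59.5 FPKM in M12–13, so the distance between the groups narrows toward the posterior end.

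Anterior and posterior libraries were compared by the mean of log2(FPKM + 1) over the 3 anterior subsections minus that over the 3 posterior ones, for 6084 genes with a mean FPKM above 3, which all 32 broad subunits passed. All 14 core subunits were higher in the anterior libraries, with a median difference of 0.96, but 3 of the 14 were when each library was set to an equal FPKM total (the same summed FPKM), and the median was −0.24. The median of all genes moved in the same way, from 0.21 to −0.89. Relative to that median, the core subunits were higher by 0.75 as deposited, by 0.65 at the same summed FPKM and by 0.74 when libraries were divided by their median ratio to the geometric mean, and the regulatory subunits by 0.07, −0.03 and 0.05. The core and regulatory medians differed by 0.68. A factor applied to a whole library moves all genes alike, so such distances between groups are nearly fixed and the scalings do not test them.

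A difference of 1 or higher, which is 2-fold on this scale, was found for 6 of the 32 subunits (24.0% of all genes) and of −1 or lower for 2 (19.6%), so neither count exceeded its background. The 6 were all core subunits: *Prosalpha5* (1.47), *Prosbeta1* (1.30), *Prosbeta4* (1.25), *Prosalpha4* (1.15), *Prosbeta5* (1.12) and *Prosalpha7* (1.02). *Prosbeta7* lay just under the limit at 0.995. *Prosbeta2* had the smallest core difference (0.34). On the posterior side, *Rpn5* had −1.19 and *Rpn2* −1.10, followed by *Rpn1* (−0.91) and *Rpt5* (−0.67). *Rpn3* (−0.10), *Rpn8* (−0.10) and *Rpt4* (−0.08) were close to 0, and the other 11 regulatory subunits were above 0 as deposited, although none of the 18 was at the same summed FPKM.

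Transcript length moved with this difference. Spearman's rho between length and the difference was −0.77 over the 32 subunits and −0.70 over 5877 genes with a known length. These correlations are across genes, which share the 8 libraries and are not independent. The core transcripts are shorter, with a median of 958.5 nt (794.5 to 1176) against 1476.5 nt (995 to 3325) for the regulatory ones and 1693 nt for all genes. After a smooth trend on length was taken off, 0 of 32 subunits had a difference of 1 or higher (8.03% of all genes) and 1 had −1 or lower (11.1%). The core median was then −0.022, with 7 of 14 above 0, and the regulatory median −0.29, with 3 of 18 above 0. The remaining difference between the core and regulatory medians was 0.26, against 0.68 before.

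*Rpn5* and *Rpt5* stood out from the length trend. *Rpn5*, at 1897 nt, had −1.29 after the trend was removed, and *Rpt5*, at 1627 nt, had −0.99. *Rpn1* (3041 nt) and *Rpn2* (3325 nt) had −0.24 and −0.31, and the trend for transcripts of their length was −0.67 and −0.79. *Prosalpha2* (−0.65), *Prosbeta3* (−0.61), *Prosbeta6* (−0.57) and *Prosbeta2* (−0.56) lay below the trend for their length and *Prosalpha4* (0.40) and *Prosalpha5* (0.39) above it.

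**Figure D3:**
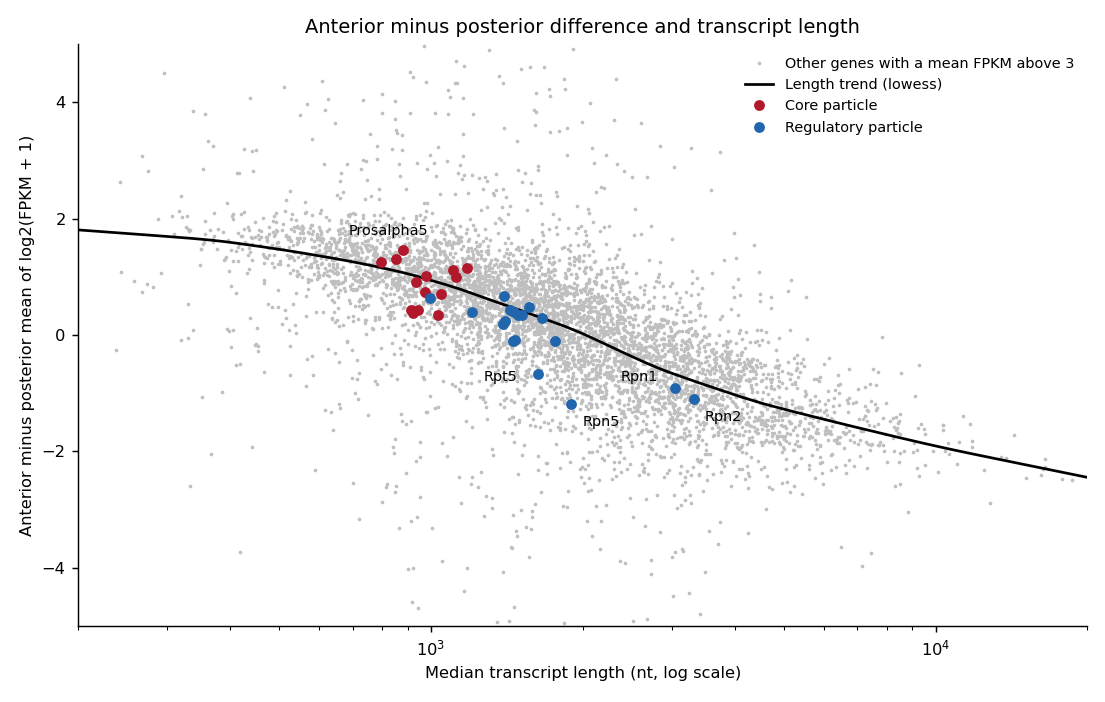
Anterior minus posterior mean of log2(FPKM + 1) against the median transcript length (nt, log scale) for genes with a mean FPKM above 3, with the 14 core and 18 regulatory subunits in color and the length trend as a line. The core subunits lie along the trend at short lengths and *Rpn1* and *Rpn2* near it at long lengths, while *Rpn5* and *Rpt5* lie below it by 1.29 and 0.99. Of all genes, 11.1% lie below the trend by 1 or more.

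In M6, the subsection with the acid-secreting copper cells, the subunits stood high among genes with a mean FPKM above 3. The M6 deviation is the log2(FPKM + 1) of M6 less its mean over the 7 remaining libraries. It had a median of 0.04 for the 32 subunits (−0.39 for *Prosalpha4* to 0.58 for *Rpn5*) and of −0.50 for all 6084 genes. None of the 32 had −1 or lower (26.9% of all genes) and none 1 or higher (6.15%). At 1 or higher there were 3 at the same summed FPKM, 4 by the median ratio and 5 with the length trend removed. All 32 were above the median of the 6084 genes, a position that a library-wide factor leaves nearly as it is. The position rests on the limit of a mean FPKM above 3. With no limit the median of all genes was −0.037, and subunits such as *Prosalpha4* and *Rpn12* lay below it. With the length trend removed, the deviation ran from 0.26 to 1.27 for the 32 and had a median of −0.016 for all genes. *Prosalpha1* (0.58), *Prosbeta2* (0.57), *Rpn6* (0.48), *Prosbeta3* (0.44) and *Rpt5* (0.40) followed *Rpn5*. *Rpn12* (−0.33), *Rpn7* (−0.32) and *Prosalpha5* (−0.30) were next to *Prosalpha4* at the other end. The signs of these single values depend on the scaling, as the median of all genes was −0.11 at the same summed FPKM and −0.01 after division by the median ratio.

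**Figure D4:**
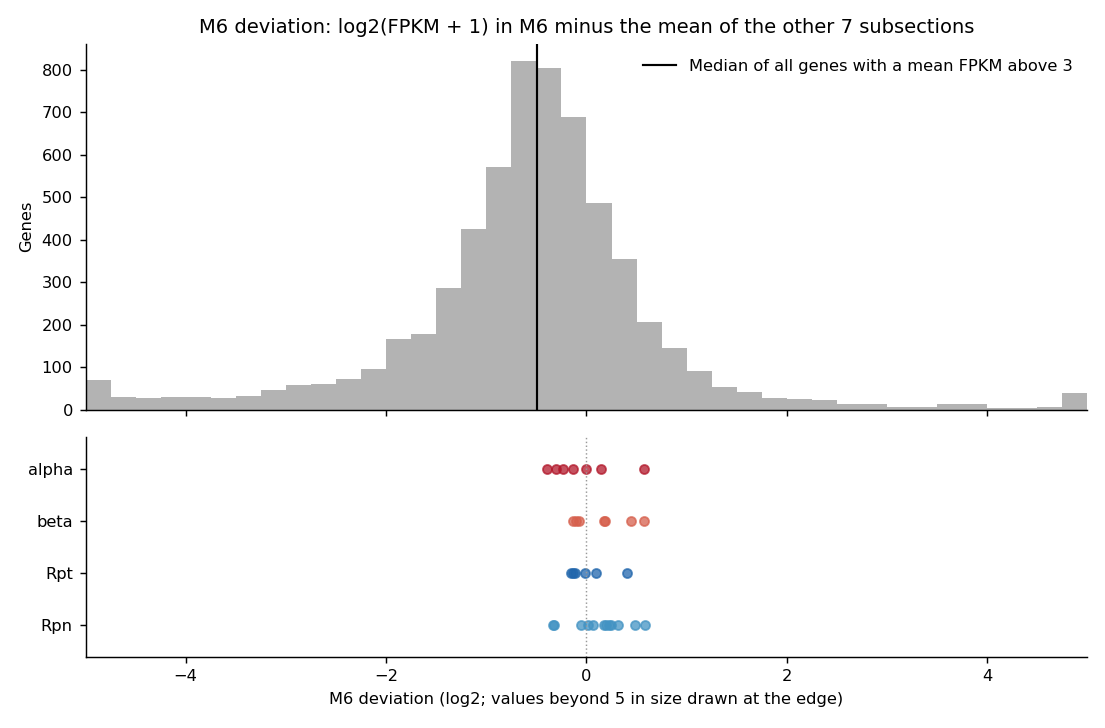
Upper panel, number of genes by M6 deviation (log2) for all 6084 genes with a mean FPKM above 3, with a line at their median of −0.50. Lower panel, the same measure for each of the 32 broad subunits by class, all of which lie between −0.39 and 0.58 and to the right of that median.

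Neighboring subsections were set side by side, a comparison chosen after the values had been seen. All 32 subunits were higher in M2 than in M1 (43.9% of all genes), by a median of 1.25 times (1.02 to 1.49), while the median of all genes was 0.962 times. At the same summed FPKM this held for 31 subunits and after division by the median ratio for 32. In M6, 29 subunits were above M7–8 (23.3% of all genes), by a median of 1.34 times against 0.698 for all genes, and 29 and 32 were under the other scalings. The exceptions were *Rpt4*, *Rpn1* and *Rpn2*, whose M6 values were 0.94, 0.90 and 0.91 times those in M7–8.

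Other steps turned with the scaling. M2 was above M3–5 for 30 subunits as deposited (53.9% of all genes; the exceptions were *Rpn1* and *Rpn2*) and 29 by the median ratio, but for 9 at the same summed FPKM. M9 was above M7–8 for 32 subunits (48.6% of all genes) and above M10–11 for 32 (43.9%), again with 32 and 32 by the median ratio, but with 19 and 1 at the same summed FPKM. Of the 32 subunits, 23 were highest in M2 (22.2% of all genes), 11 by the median ratio and 1 at the same summed FPKM. Those highest in M6 were 4 as deposited, 21 by the median ratio and 13 at the same summed FPKM, and those highest in M12–13 were 0, 0 and 16. The lowest value was in M7–8 for 16 (5.46% of all genes), 11 and 2. The highest value with 1 added was within 2-fold of the lowest for 17 of 32 (18.9% of all genes), 13 and 11, and as deposited the 17 were all 6 Rpt, 7 of 12 Rpn, 3 of 7 beta and 1 of 7 alpha subunits.

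None of the 15 paralogs came near the subunit it is named after. *Prosalpha4T1*, *Prosalpha4T2*, *Prosbeta2R1*, *Prosbeta5R1* and *Prosbeta5R2* were listed at 0 in all 8 libraries. The others ran from 0 in at least 4 libraries to a highest value of 0.0669 FPKM for *Prosalpha3T*, 0.0350 for *Prosalpha6T*, 0.0717 for *Prosbeta2R2*, 0.0588 for *Prosbeta4R1*, 0.0599 for *Prosbeta4R2*, 0.0402 for *Rpn12R* and 0.0497 for *Rpn13R*. For the 12 paralogs below the limit, 16 of 96 values were above 0, the highest was 0.0717 FPKM (*Prosbeta2R2* in M1) and all values together summed to 0.715 FPKM. *Prosalpha3T* was the last of them below the limit, with a sum of 0.193 FPKM. The lowest value of any subunit they are named after was 45.4 FPKM (*Rpn13* in M12–13). The gene names with T stand for expression in the testis, and of 9 testis genes found none reached 1 FPKM in any library, with *can* at 0 throughout and a sum over the 9 between 0.0720 and 0.994 FPKM. The bundle of *Rpn12R* holds 13 genes and that of *Rpn13R* 5, and *Prosbeta4R1* and *Prosbeta4R2* are neighbors on 2L.

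The ATPase paralogs *Rpt3R*, *Rpt4R* and *Rpt6R* had the highest values among the paralogs. *Rpt6R* (3R, 26407920 to 26409419) was measured at 0, 0.0285 and 0 FPKM in M1, M2 and M3–5, 0.0389 and 0.0500 FPKM in M6 and M7–8, and 0.257, 2.99 and 0.514 FPKM in M9, M10–11 and M12–13. Nearly all of it was posterior, and the M10–11 value was 2.77% of *Rpt6* in the same library. *Rpt4R* (3L, 11935123 to 11936585) had 0.295 FPKM in M1, 0 in M2 and M3–5, 0.0314 in M6, 2.46 in M7–8, 0.526 in M9 and 0 in M10–11 and M12–13. It was highest in M7–8, at 3.06% of *Rpt4*. *Rpt3R* (3R, 5580455 to 5585035, with a neighboring gene in the bundle) was low everywhere, with 0.0893, 0.331 and 0.124 FPKM in M1, M2 and M3–5, 0.156 and 0.165 FPKM in M6 and M7–8, and 0.126, 0.326 and 0.0964 FPKM in M9, M10–11 and M12–13. At its highest it was 0.448% of *Rpt3*. The upper bounds of the interval were 7.35 FPKM for the highest value of *Rpt6R* and 6.12 for that of *Rpt4R*, and up to 3.37 for *Rpt3R* (M10–11). *Prosap* (2R, 9947961 to 10028407, a bundle of 3 genes) measured 0.906, 0.654 and 0.856 FPKM in M1, M2 and M3–5, 1.17 and 1.72 FPKM in M6 and M7–8, and 1.99, 1.98 and 2.51 FPKM in M9, M10–11 and M12–13, lowest in the anterior libraries.

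Gene structure was compared in a later annotation of the genome. There 6 of the 15 paralogs had a single exon, against 4 of the 32 broad subunits and 16.0% of all annotated rows. Compared with the subunit of the same name, 11 paralogs had fewer exons and 4 had as many, and 10 lay on another chromosome arm. Exon numbers are medians over transcripts, and the 11 include *Rpt3R* (2.5 against 3) and *Prosbeta5R1* (2 against 2.5). Neither comparison has a background over other pairs of genes, so the counts are not read as a trait of the paralogs.

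**Figure D5:**
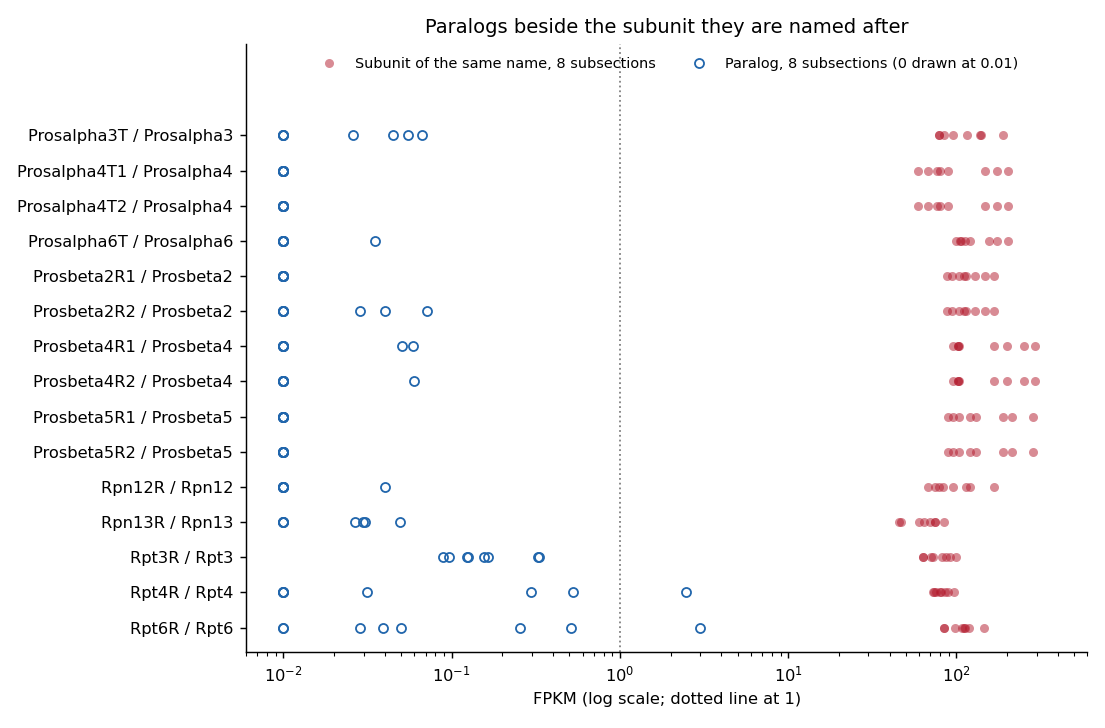
FPKM (log scale) in the 8 subsections of each of the 15 paralogs (open circles, with 0 drawn at 0.01) and of the subunit it is named after (filled circles). The values of the subunits lie at 45.4 or above, and of the paralogs *Rpt4R* and *Rpt6R* pass 1 FPKM, each in 1 library.

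A further row holds a core subunit under another name. *CG30382* (2R, 3716567 to 3719276) lies next to *Prosalpha1* and is a near-identical copy of it. It measured 113, 135 and 103 FPKM in M1, M2 and M3–5, 113 and 51.0 FPKM in M6 and M7–8, and 69.7, 58.2 and 55.1 FPKM in M9, M10–11 and M12–13. Its value was between 0.996 and 1.04 times that of *Prosalpha1* in every library. Reads that fit both copies are divided between them by the quantification, so the level of either gene alone is uncertain and their likeness is no separate observation.

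Other genes of the pathway were taken from a list of 23, of which 21 were found and 20 passed the limit of expression. As deposited, the anterior minus posterior difference was 1 or higher for 3 (24.0% of all genes), −1 or lower for 2 (19.6%) and between for 15, with a median of −0.10, so neither share exceeded its background. The 3 were *maf-S* (1.17), the partner of the Cnc transcription factor, *Pomp* (1.11), an assembly factor of the core, and *REG* (1.07), an activator that binds the core in place of the regulatory particle. The 2 were *cnc* (−1.73) and the ubiquitin-conjugating enzyme *UbcD6* (−1.22). At the same summed FPKM none of the 20 was at 1 or higher and 11 were at −1 or lower, with *maf-S* at −0.012, *Pomp* at −0.073 and *REG* at −0.088. By the median ratio these counts were 0 and 3. With the length trend removed none was at 1 or higher, with *REG* at 0.73, *Pomp* at 0.27 and *maf-S* at −0.15, and 2 were at −1 or lower (*UbcD6* at −1.52 and the shuttle protein *Rad23* at −1.18). *cnc* and *UbcD6* were below −1 under each scaling. *cnc* (3R, 18994039 to 19052433) encodes the fly homolog of the Nrf factors that drive proteasome genes in mammals. It measured 22.6, 18.0 and 21.6 FPKM in M1, M2 and M3–5, 42.2 and 54.4 FPKM in M6 and M7–8, and 71.2, 77.4 and 65.1 FPKM in M9, M10–11 and M12–13. It was lowest in M2, where 23 of the 32 subunits were highest as deposited and 1 at the same summed FPKM. A link between *cnc* and the subunits was not tested. The transcripts of *cnc* are long (4741.5 nt), the length trend for such a gene was −1.22, and −0.52 remained after its removal.

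The ubiquitin genes stood apart in M6. *Ubi-p63E*, a polyubiquitin gene, measured 151, 211 and 260.3 FPKM in M1, M2 and M3–5, 1082 and 272 FPKM in M6 and M7–8, and 373, 377 and 242 FPKM in M9, M10–11 and M12–13. *Ubi-p5E*, another polyubiquitin gene, had 1341 FPKM in M6 and between 394 and 526 elsewhere. Their M6 deviations were 2.06 and 1.52, the 2 of 20 pathway genes at 1 or higher as deposited (6.15% of all genes), and none was at −1 or lower (26.9%). Under the other scalings 3 and 6 genes were at 1 or higher, and these 2 were at 1.98 or above. The repeats of these genes share sequence, so their reads too can be divided between them. The ubiquitin-activating enzyme *Uba1* ran from 28.4 FPKM in M1 to 59.4 in M7–8, and the receptor *ref(2)P*, the fly p62, from 138 in M1 to 391 in M7–8. The deubiquitinase *Uch-L5*, which docks on Rpn13, ran from 12.8 FPKM in M6 to 36.0 in M2.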

How the data were processed

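Larval midgut RNA was measured in 8 libraries, 1 for each subsection. The authors filtered reads by quality, mapped them to *D. melanogaster* release 5 with TopHat2 2.0.6 and quantified them with Cuffdiff 2.0.2, with upper-quartile normalization, correction for multiply mapped reads and fragment bias, and the blind dispersion method; the deposited values are FPKM. Libraries were unstranded, so reads of overlapping or antisense genes cannot be told apart. The tool versions are from the submitters' processing notes. The columns held no samples of other series.

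Values were used as log2(FPKM + 1). Genes with a mean FPKM above 3 entered comparisons across genes. A summed FPKM below 1 was taken as little or no expression. Lengths and exon numbers were medians over transcripts in a later annotation, joined by identifier (13772 rows, 48 of 48 members), and the trend on length was fitted by lowess (share 0.3). Paralogs were paired with subunits by name. Scripts ran in Python 3.11.15 with statsmodels 0.14.6, pandas 2.3.3 and numpy 2.4.6, and the measures were tested on simulated data.

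The members and the lists of pathway genes and tissue genes were chosen with earlier results of these data known. Every row was named with its range or highest value. All 8 values were given for the highest and lowest mean of each class, the extremes of the M6 deviation, of the anterior minus posterior difference and of the highest-to-lowest ratio, rows between the limits, the 3 catalytic beta subunits, subunits under another symbol and *cnc*. *Ubi-p63E*, *Ubi-p5E* and the other pathway genes were named after their values were seen. Comparisons of neighboring subsections and of the highest and lowest subsection, the ratio among short transcripts and their alternatives were chosen after seeing the data. Alternatives were a pseudocount of 0.1, a mean above 10 or no limit, rows with status OK alone, both scalings, removal of the length trend, each of the 6 anterior and posterior subsections left out of their difference, and M6 left out of the evenness and of the pattern ranking. With 1 library a subsection no test was made, and depth per value is unknown.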

Additional observations from a re-analysis of the deposited data

How the results depend on the processing

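No paired analysis was possible because each subsection had 1 library and no test was made. A pseudocount of 0.1, a mean above 10, no limit on the mean, or rows with status OK alone moved none of the counts and medians of the subunits past 1.5 times. The medians of all genes set beside them moved more: that of the M6 deviation from −0.50 to −0.037 with no limit and −0.64 at a mean above 10, and that of the anterior minus posterior difference from 0.21 to 0 and 0.45. With no limit, not all of the 32 subunits were above the median M6 deviation of all genes. Rescaling to the same summed FPKM moved the most. The subunits with an M6 deviation of 1 or higher went from 0 to 3, those with an anterior minus posterior difference of 1 or higher from 6 to 0 and of −1 or lower from 2 to 8, the core subunits above 0 from 14 to 3 and the regulatory ones from 11 to 0, the core median from 0.96 to −0.24 and the regulatory median from 0.27 to −0.92. In the same setting 11 core and 11 regulatory subunits changed sign, among them *Prosalpha4* (−0.046), *Prosalpha7* (−0.18) and *Prosbeta5* (−0.076), which had been at 1 or higher, 11 subunits were within 2-fold, 1 was highest in M2 and 2 were lowest in M7–8. Under it 9 were higher in M2 than in M3–5, 19 in M9 than in M7–8 and 1 in M9 than in M10–11. Division by the median ratio gave 4 subunits with an M6 deviation of 1 or higher, 3 with an anterior minus posterior difference of 1 or higher and 11 highest in M2. With the length trend removed these were 5 and 0, with 1 at −1 or lower, 7 core and 3 regulatory subunits above 0, and a core median of −0.022. Without M1, 1 subunit was at −1 or lower, with *Rpn5* at −1.08 and *Rpn2* just above the limit. The lower bound of the deposited interval in place of the value left 0 of 32 subunits broad, while limits of 5 and 0.1 FPKM gave 32 and 33. The causes of the changes under the scalings were not tested. Of the 10 genes with the most similar pattern, 3 were shared with ranking by Spearman's rho and 2 with M6 left out.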

Other observations

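As deposited, the subunits resembled each other more than they resembled most genes, and the likeness was uneven. The correlation of each subunit's log2(FPKM + 1) with the mean of the other subunits over the 8 subsections had a median of 0.90. It was at least 0.9 for 16 of the 32 (8 core, 8 regulatory), against 0.611% of 6052 other genes, where it was taken with the mean of all 32. The highest values were those of *Prosalpha2* (0.99), *Prosbeta6* (0.98) and *Rpt2* (0.98), and *Rpn2* (−0.73), *Rpn1* (−0.69), *Rpn5* (−0.67) and *Rpt5* (−0.50) were negative. These correlations are given for the deposited FPKM, at which 23 of the 32 were highest in M2, against 1 at the same summed FPKM. The subunits had shorter transcripts, with a median of 1298.5 nt against 1693 nt for all genes. The part of length in the likeness was not tested. The 8 points share their library depth and scaling, so these values are descriptions.

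Outside the named subunits, the genes with the most similar pattern were *Npc2a* (0.98), a sterol-binding protein of the NPC2 family, and *Ufd1-like* (0.98), a cofactor of the TER94 segregase that hands ubiquitinated proteins to the proteasome. *Ufd1-like* measured 34.3 FPKM in M2, 27.6 in M6 and 22.6 in M7–8. The other genes listed for this segregase had correlations of −0.11 (*TER94*), −0.78 (*Npl4*) and 0.69 (*p47*). After *Ufd1-like* came *Txl* (0.97), *CG6283* (0.97), *CG12795* (0.96), *aph-1* (0.95), *usnp* (0.95), *Rab39* (0.94), *Ubc12* (0.94), the conjugating enzyme of the Nedd8 pathway, and *eIF-3p40* (0.94). Most of this order did not hold under other settings, where 3 or 2 of the 10 genes were shared.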
